A study of Mus musculus with 12 samples.

Results

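The 10 genes described here encode secreted or membrane-bound cytokines that T cells can make: Ifng, Tnf, Il2, Il10, Il21, Csf2, Il3, Lta, Ltb and Tgfb1. They were picked by symbol, and all 10 are present among the 55536 annotated genes of the count table. The filter on low counts kept 9 of the 10, all but Il3, out of 18817 genes tested.

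Every library came from OT-I CD8+ T cells, which carry a transgenic receptor for an ovalbumin peptide and come from donors deficient in Rag. In the Ag group (5 libraries), the cells were moved into wild-type C57BL/6J mice that then received the peptide and a rat IgG control. In the Ag+Costim group (5 libraries), the recipients got the peptide with agonist antibodies against CD134 (OX40) and CD137 (4-1BB), which are costimulatory receptors of the TNF receptor superfamily. The Naive group (2 libraries) came from OT-I mice with no transfer and no peptide. Both primed groups thus differ from Naive in transfer, host mouse and peptide together, and these cannot be told apart here. The labels put the harvest of spleen and lymph nodes at day 4, while the study's methods give a slightly earlier time, and the cells were sorted on CD8, a congenic marker and both receptor chains. Mice of both sexes from young to mature adult age were used, the age of single animals was not given in the sources used here, and the study describes its libraries as individual biological replicates. The p-values below measure the spread between these libraries.

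Cytokine genes of CD8+ T cells are switched on through the T cell receptor by NFAT, AP-1 and NF-κB factors, and costimulation adds to these signals. Many of their mRNAs carry AU-rich elements, repeats of the pentamer ATTTA in the DNA letters used here, at which RNA-binding proteins shorten or prolong the life of the transcript. Tgfb1 differs in that its protein is made in a latent form, which is released outside the cell before it can signal.

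Total counts lay between 24006053 (Ag 4) and 49294934 (Ag+Costim 3) per library. The sequencing core gave 24714617 (Ag 4) to 46800347 (Naive 1) reads per library, of which 72.3% to 76.5% were aligned. Counts were fewer than reads in Ag 4, Naive 1 and Naive 2 and exceeded reads in every other library. Ag+Costim 3, for example, had 45971065 reads, while Naive 2 had 46602901 reads against 42342577 counts. The counts are derived from coverage and are not numbers of reads, and the cause of these differences was not tested. The 9 marker genes of the T cell receptor and CD8 lineage were all detected, with a summed level in CPM (counts scaled to library size) of 11622 to 12338 in Naive, 10093 to 14326 in Ag and 5896 to 8108 in Ag+Costim. Cd4 and Foxp3 together stayed at or below 2.82 CPM in every library. Markers of other cells also moved with the groups. The 5 erythroid genes summed to 625 to 6373 CPM in Ag, 14.5 to 222 in Ag+Costim and 149.6 to 2068 in Naive. The 7 B cell genes summed to 1134 to 1857 CPM in Ag, 598 to 1221 in Ag+Costim and 1049 to 1060 in Naive. Most of that sum was Ighm, and Pax5 was at 0 in both Naive libraries. The 4 dendritic cell genes summed to 10.03 to 29.2 CPM in Ag, 28.0 to 146 in Ag+Costim and 3.15 to 3.17 in Naive, mostly from Itgax, with Siglech at 0 in Ag and in Naive. The 8 myeloid genes, all detected in each group, summed to 51.1 to 169 CPM in Ag, 81.2 to 129 in Ag+Costim and 31.5 to 109.8 in Naive. The 3 NK and innate lymphoid genes, all detected as well, summed to 17.1 to 41.4 CPM in Ag, 6.30 to 16.7 in Ag+Costim and 17.5 to 22.8 in Naive. The 2 platelet genes stayed at or below 9.81 CPM. The part of these cells in the cytokine values was not tested, and in bulk samples fewer cells of a type and less RNA per cell cannot be told apart.

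The promoters of all 6 cytokine genes called between the primed groups are shown: Ifng, Tnf, Il2, Lta and Ltb had less in Ag+Costim than in Ag, and Tgfb1 had more. Each window holds 250 bases before and 50 bases after the RefSeq start (GRCm38.p6), read 5′ to 3′ on the strand of the gene. Capitals mark matches on either strand to 4 motifs, of which the kappa-B consensus is given by name. GGAAA is the core of an NFAT site. The general factor TFIID binds at TATAAA in many inducible genes. Sp1 family factors bind the GC box, GGGCGG. The windows are chr3:37125905-37126204 (minus strand) for Il2, chr10:118440796-118441095 (plus) for Ifng, chr17:35201958-35202257 (minus) for Tnf, chr17:35205302-35205601 (minus) for Lta, chr17:35194257-35194556 (plus) for Ltb and chr7:25686752-25687051 (plus) for Tgfb1.
Il2: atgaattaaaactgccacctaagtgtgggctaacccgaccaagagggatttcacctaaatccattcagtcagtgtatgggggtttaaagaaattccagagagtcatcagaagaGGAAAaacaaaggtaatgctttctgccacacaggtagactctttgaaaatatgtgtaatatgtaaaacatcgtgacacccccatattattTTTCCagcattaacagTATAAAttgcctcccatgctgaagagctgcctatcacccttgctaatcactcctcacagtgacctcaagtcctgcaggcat
Ifng: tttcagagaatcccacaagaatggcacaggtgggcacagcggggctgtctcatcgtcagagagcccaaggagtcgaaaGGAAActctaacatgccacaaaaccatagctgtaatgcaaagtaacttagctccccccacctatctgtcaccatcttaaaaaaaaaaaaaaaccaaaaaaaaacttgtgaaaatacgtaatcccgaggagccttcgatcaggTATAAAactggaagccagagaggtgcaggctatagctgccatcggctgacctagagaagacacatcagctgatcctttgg
Tnf: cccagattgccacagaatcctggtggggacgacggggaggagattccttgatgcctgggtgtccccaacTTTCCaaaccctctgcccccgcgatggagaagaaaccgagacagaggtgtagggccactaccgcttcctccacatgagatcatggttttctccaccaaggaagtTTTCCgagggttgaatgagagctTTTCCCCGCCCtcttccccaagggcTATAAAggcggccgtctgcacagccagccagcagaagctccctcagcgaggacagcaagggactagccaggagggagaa
Lta: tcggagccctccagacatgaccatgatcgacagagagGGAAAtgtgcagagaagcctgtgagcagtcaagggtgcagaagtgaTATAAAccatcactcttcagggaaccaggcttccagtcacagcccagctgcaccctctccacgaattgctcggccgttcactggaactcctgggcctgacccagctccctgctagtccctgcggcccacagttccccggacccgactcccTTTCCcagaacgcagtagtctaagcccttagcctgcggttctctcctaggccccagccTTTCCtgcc
Ltb: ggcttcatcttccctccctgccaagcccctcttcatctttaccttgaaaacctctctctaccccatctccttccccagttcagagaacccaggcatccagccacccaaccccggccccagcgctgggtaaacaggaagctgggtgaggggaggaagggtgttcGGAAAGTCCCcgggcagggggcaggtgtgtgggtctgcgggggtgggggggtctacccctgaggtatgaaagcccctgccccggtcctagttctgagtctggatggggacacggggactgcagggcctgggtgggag
Tgfb1: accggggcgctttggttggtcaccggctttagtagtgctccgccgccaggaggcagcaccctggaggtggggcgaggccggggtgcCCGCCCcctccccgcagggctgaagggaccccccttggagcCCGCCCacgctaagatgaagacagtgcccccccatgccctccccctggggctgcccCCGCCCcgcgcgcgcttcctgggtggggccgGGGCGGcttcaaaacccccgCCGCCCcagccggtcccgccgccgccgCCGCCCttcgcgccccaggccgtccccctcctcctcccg
The Il2, Ifng, Tnf and Lta windows each held 1 TATAAA, a motif found in 13.6% of 32851 RefSeq promoters of 300 bases, and 2, 1, 3 and 3 matches to GGAAA, found in 61.3%. In Il2, Ifng and Tnf the TATAAA lies shortly before the start, while in Lta it lies in the first part of the window, farther upstream. The Ltb window held no TATAAA and 1 GGAAA, although Ltb was lower with costimulation as those genes were. The Tgfb1 window held neither and had 6 matches to GGGCGG, found in 35.7% of promoters. GC content was 42.0% in Il2, 46.0% in Ifng, 58.0% in Tnf, 59.0% in Lta, 63.3% in Ltb and 77% in Tgfb1. Of the 9 cytokine genes with a RefSeq promoter, all but Il10, GGAAA was in 8, TATAAA in 4 and GGGCGG in 4. The AP-1 letters TGANTCA (7.81% of promoters) were in 0 of the 9 windows, and the kappa-B consensus (4.51%) was only in Ltb. In the Ltb window that match overlaps its GGAAA. A match of letters is a description and not a bound site.

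The AU-rich stretches are shown because the genes for the proteins that read them also differed between the groups, as given further on. Each line is the 30-base window of the GENCODE vM21 3′ untranslated region with the most ATTTA, on the strand of the gene, with ATTTA in capitals. The windows lie at chr17:35199679-35199708 (minus) for Tnf, chr11:54247329-54247358 (minus) for Csf2, chr3:37121040-37121069 (minus) for Il2 and chr10:118445330-118445359 (plus) for Ifng, all on GRCm38.
Tnf: attATTTAttATTTATTTAttATTTATTTA
Csf2: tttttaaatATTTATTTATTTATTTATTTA
Il2: ctATTTATTTAaatATTTAactttaATTTA
Ifng: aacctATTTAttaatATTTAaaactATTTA
The whole 3′ untranslated region held 8 ATTTA in Tnf, 9 in Csf2, 7 in Il2 and 6 in Ifng. It also held 6 in Il10 and 9 in Il21, so 6 of the 10 genes had 5 or more, against 21.5% of 12926 tested genes with an annotated region. Lta had 3, Il3 and Tgfb1 had 1 each, and Ltb had 0.

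**Figure D1:**
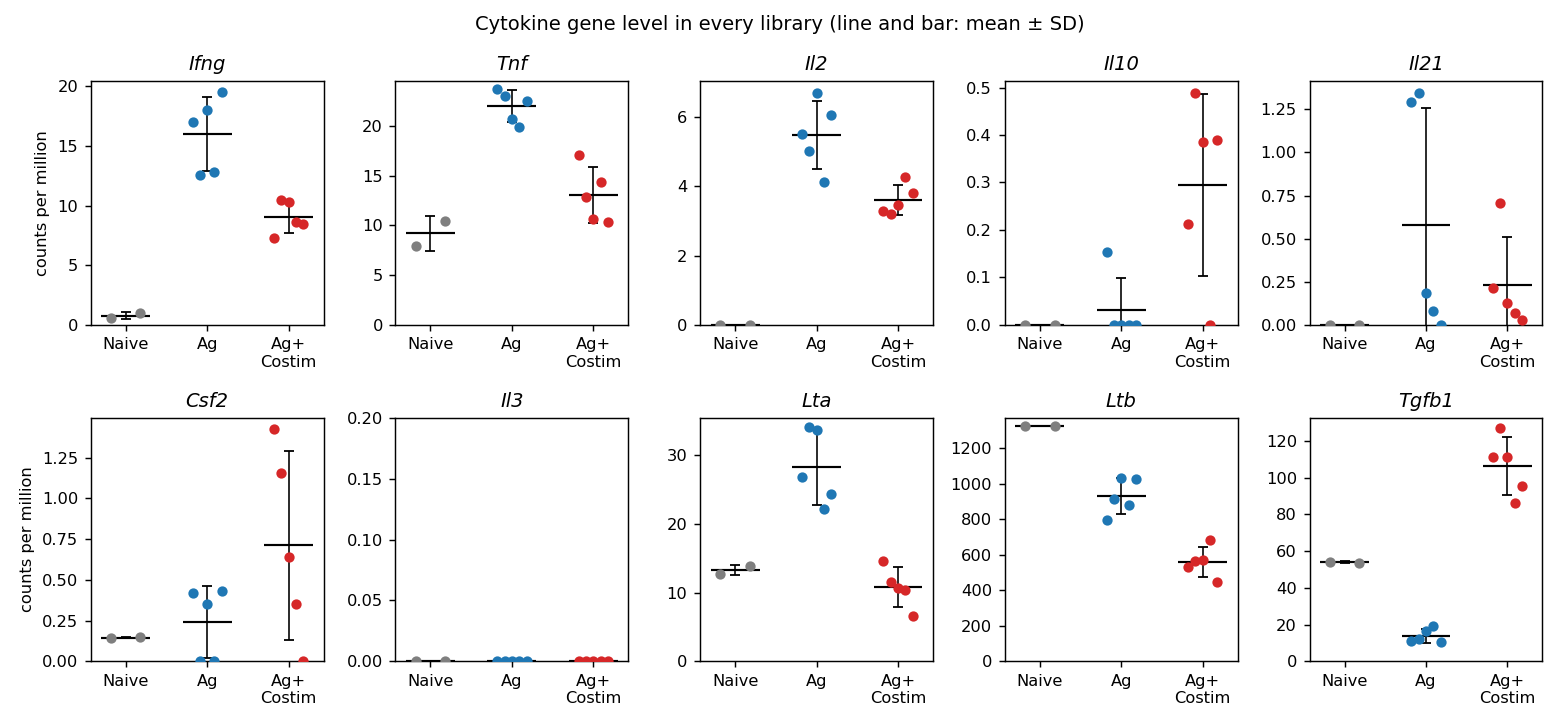
Level of each cytokine gene in CPM (vertical axis, from 0) in every library of the Naive (grey, 2 libraries), Ag (blue, 5) and Ag+Costim (red, 5) groups, with the mean (line) and SD (bar). Tgfb1 is lowest in Ag and highest in Ag+Costim with no overlap, Ltb falls from group to group, and Il3 is at 0 in all 12 libraries.

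The Ag group was compared with the Naive group first. Of the 9 tested cytokine genes, 5 rose in Ag (Ifng, Tnf, Il2, Il21 and Lta), 2 fell (Ltb and Tgfb1), and Il10 and Csf2 did not pass edgeR's test. Over all genes tested, 24.2% were called higher and 22.5% lower in this comparison. The median log2 fold change of the 9 genes was 1.26, or 1.17 over 8 genes with Il2 and Il21 at their lower bounds and Il10 left without a value, against 0.016 over all genes. Costimulation was then compared with antigen alone, and the comparisons share samples. There 1 cytokine gene rose (Tgfb1) and 5 fell (Ifng, Tnf, Il2, Lta and Ltb), with Il10, Il21 and Csf2 not called, against 26.6% of all genes called higher and 26.5% lower. The median of the 9 genes was -0.73, against -0.05 over all genes. With upper-quartile in place of TMM scaling, all genes split into 4056 higher and 6338 lower, in place of 5006 and 4979, and their median moved to -0.24. The same 1 and 5 cytokine genes were called, and the 5 lower ones (-0.80 to -1.58) lay below that median too. Against Naive, Ag+Costim had 4 genes higher (Ifng, Tnf, Il2 and Tgfb1) and 1 lower (Ltb), where 26.9% of all genes were called higher and 25.4% lower. The median was 2.27, or 1.88 with Il2, Il10 and Il21 at their bounds. On FPKM (limma, log2 of FPKM plus 1), all genes split into 3460 higher and 4752 lower in Ag versus Naive (4559 and 4233 on counts) and 3692 and 5428 in Ag+Costim versus Naive (5066 and 4778 on counts).

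**Figure D2:**
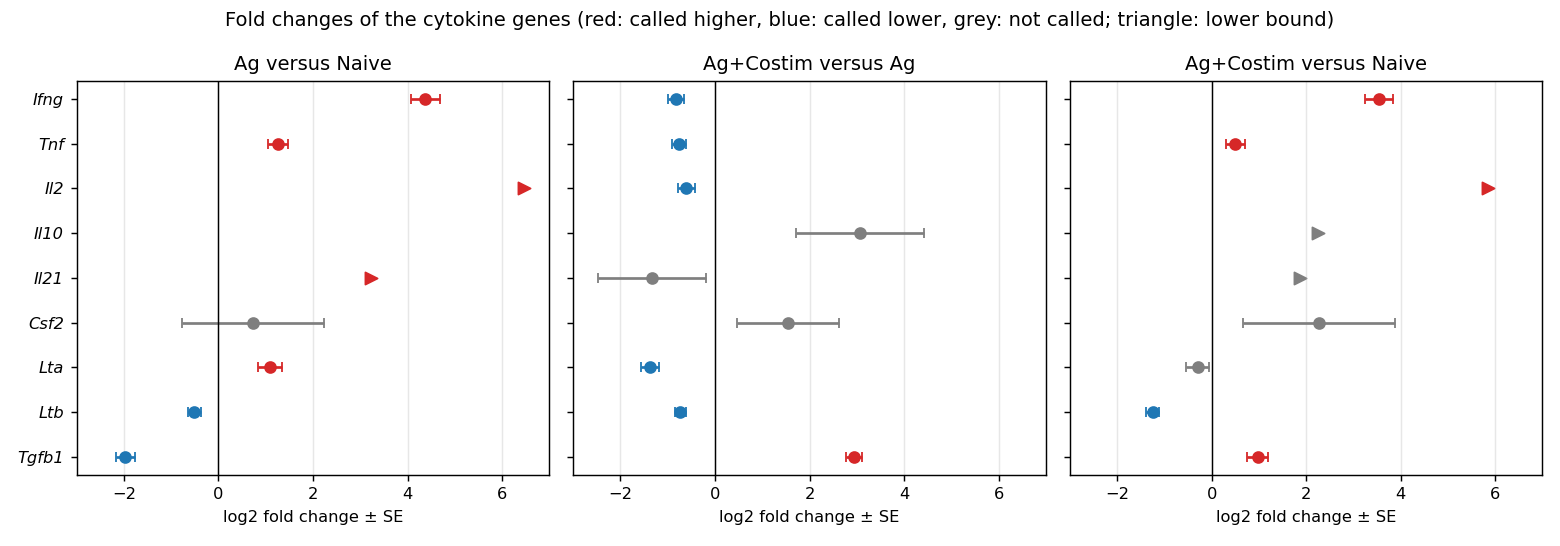
Log2 fold changes with SE (horizontal axis) of the 9 tested cytokine genes in the 3 comparisons, coloured by the edgeR call. Triangles are lower bounds for genes with no counts in Naive, and Il10 has no value in Ag versus Naive. The only red point of Ag+Costim versus Ag is Tgfb1 at 2.95.

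Among the effector cytokines, Ifng encodes interferon gamma, the main activator of macrophages and of antigen presentation made by CD8+ T cells. Ifng (ENSMUSG00000055170.4, chr10:118441046-118445892, plus strand, mm10) stood at 0.576 and 0.966 CPM in Naive. It reached 17.0, 12.6, 18.03, 12.9 and 19.5 CPM in Ag 1 to 5, and 7.28, 10.5, 10.3, 8.59 and 8.49 CPM in Ag+Costim 1 to 5. The 3 groups did not overlap, with Ag highest and Ag+Costim between it and Naive. The log2 fold change was 4.37 (SE 0.31, edgeR's adjusted p = 2.47e-07) in Ag versus Naive and -0.82 (SE 0.17, edgeR's adjusted p = 0.00127) in Ag+Costim versus Ag. Even so, Ag+Costim stayed above Naive by 3.55 (SE 0.30, edgeR's adjusted p = 5.37e-07). All 3 were called the same way in the 21 other settings tried. Gm49751, a locus of unknown coding status on the same strand, overlaps Ifng.

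Tnf encodes tumour necrosis factor, an inflammatory cytokine that is cut from the cell surface. Tnf (ENSMUSG00000024401.14, chr17:35199381-35202007, minus strand) stood at 7.96 and 10.5 CPM in Naive, so it was already present before priming. In Ag it read 23.7, 23.0, 20.7, 19.9 and 22.6 CPM, and in Ag+Costim 17.1, 12.8, 10.6, 14.4 and 10.3 CPM. Ag lay above both other groups, while Ag+Costim overlapped Naive. Tnf rose by a log2 fold change of 1.26 in Ag versus Naive (SE 0.21, edgeR's adjusted p = 0.000255) and was lower by -0.75 in Ag+Costim versus Ag (SE 0.15, edgeR's adjusted p = 0.000684). The remaining excess over Naive, 0.50 (SE 0.20, edgeR's adjusted p = 0.0485), was lost in 16 of 21 other settings, among them those without Ag 1, 2, 3 or 5, without Ag+Costim 1, 2 or 4 and without either Naive library, with values from 0.24 to 0.70 over all settings.

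Il2 encodes interleukin 2, the growth factor of T cells. Il2 (ENSMUSG00000027720.7, chr3:37120523-37125959, minus strand, overlapped on the other strand by Adad1) had no counts in either Naive library. The Ag libraries held 5.51, 5.04, 6.71, 4.11 and 6.06 CPM, and the Ag+Costim libraries 3.30, 3.19, 3.45, 4.28 and 3.82 CPM. Only Ag+Costim 4 reached above the lowest Ag library. Against 3 counts per Naive library, Il2 was at least 88.0-fold higher in Ag and at least 57.8-fold higher in Ag+Costim. Between the primed groups the log2 fold change was -0.61 (SE 0.17, edgeR's adjusted p = 0.0108), and with a correction for gene length it was -0.41 and not called.

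Lta and Ltb encode the lymphotoxins, which as heterotrimers on the cell surface signal to the lymphotoxin beta receptor in lymphoid tissue. Lta (ENSMUSG00000024402.5, chr17:35203165-35205351, minus strand) lies 1157 bases from Tnf, and Ltb 3060 bases from Tnf on its other side. Lta stood at 12.7 and 13.8 CPM in Naive. It was 26.8, 34.0, 33.6, 22.1 and 24.4 CPM in Ag, and 14.6, 11.6, 10.7, 10.4 and 6.62 CPM in Ag+Costim. Ag was the one high group, since Ag+Costim spanned the Naive values. Lta rose by a log2 fold change of 1.09 in Ag versus Naive (SE 0.26, edgeR's adjusted p = 0.00387), which became 0.61 and was not called with the length correction. In Ag+Costim versus Ag it was -1.38 (SE 0.19, edgeR's adjusted p = 3.42e-05), the lowest value of the 9 genes and a 2.61-fold difference. Ag+Costim versus Naive gave -0.30 (SE 0.24, edgeR's adjusted p = 0.320).

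Ltb was by far the most abundant cytokine transcript. Ltb (ENSMUSG00000024399.5, chr17:35194439-35196320, plus strand) stood at 1327 and 1326 CPM in Naive. It was 796, 914, 1035, 883 and 1029 CPM in Ag and 531, 564, 570, 685 and 448 CPM in Ag+Costim. The 3 groups descended without overlap. Ltb had a log2 fold change of -0.51 in Ag versus Naive (SE 0.14, edgeR's adjusted p = 0.0101), -0.73 in Ag+Costim versus Ag (SE 0.11, edgeR's adjusted p = 8.30e-05) and -1.24 in Ag+Costim versus Naive (SE 0.14, edgeR's adjusted p = 7.46e-06). The first of these was not called without Naive 1 (-0.51) or without Naive 2 (-0.51), while the other two were called in all 21. The Mir6973a gene lies on the same strand within Ltb, and Mir6974 within Lta, so their reads were not separable from the hosts.

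Of the regulatory cytokines, Tgfb1 encodes transforming growth factor beta 1, which restrains effector T cells and supports resident memory and regulatory T cells. Tgfb1 (ENSMUSG00000002603.15, chr7:25687002-25705077, plus strand) was the single cytokine gene called higher with costimulation. It stood at 54.4 and 53.6 CPM in Naive. In Ag it was 11.3, 11.95, 16.3, 19.2 and 10.4 CPM, and in Ag+Costim 111, 127, 111, 86.2 and 95.5 CPM. The groups did not overlap, with the lowest Ag+Costim library (86.2 CPM) far above the highest Ag library (19.2 CPM). Tgfb1 fell by a log2 fold change of 1.97 in Ag versus Naive (SE 0.20, edgeR's adjusted p = 4.87e-06). Ag+Costim exceeded Ag by 2.95 (SE 0.17, edgeR's adjusted p = 3.01e-08), a 7.70-fold difference that ranked 141 of 18817 genes by p. Ag+Costim also exceeded Naive, by 0.98 (SE 0.22, edgeR's adjusted p = 0.00241). The 3 were called the same way in all 21 other settings, in which the difference between the primed groups ran from 2.69 to 3.09.

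Il10 and Il21 were close to the limit of detection. Il10 (ENSMUSG00000016529.5, chr1:131019845-131024974, plus strand) encodes interleukin 10, an anti-inflammatory cytokine. It had no counts in Naive and none in 4 of 5 Ag libraries, with 0.154 CPM (7 counts) in Ag 1. In Ag+Costim it was 0.213, 0.488, 0.386, 0 and 0.389 CPM. Ag+Costim 4 thus held none, and the groups overlapped. The log2 fold change of 3.06 in Ag+Costim versus Ag (SE 1.36, edgeR's adjusted p = 0.0762) was not called, though it was without Ag+Costim 4 (3.40), on unfiltered FPKM (0.24) and without Ag 1. In that last setting Ag has no counts, and Ag+Costim was at least 3.60-fold above 3 counts per Ag library. Ag+Costim was at least 4.73-fold above 3 counts per Naive library (edgeR's adjusted p = 0.0521), a difference called in 5 of 19 other settings, among them without Ag 1 and without Ag+Costim 4. Il10 passed the filter on low counts through a few libraries.

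Il21 (ENSMUSG00000027718.8, chr3:37222759-37232636, minus strand) encodes interleukin 21, a helper cytokine that sustains CD8+ T cells, and lies 96799 bases from Il2. It had no counts in Naive, 1.29, 1.34, 0.186, 0.0791 and 0 CPM in Ag and 0.213, 0.709, 0.129, 0.0698 and 0.0260 CPM in Ag+Costim. Ag 1 and Ag 2 held most of the signal, and the primed groups overlapped. Il21 was at least 9.31-fold higher in Ag than 3 counts per Naive library (edgeR's adjusted p = 0.0338). That call was lost without Ag 1 or Ag 2 and without either Naive library. The bound was 3.68-fold in Ag+Costim (edgeR's adjusted p = 0.0631) and 1.75-fold without Ag+Costim 2. It was called without Ag 5, with DESeq2 and with the replicate block. The difference between the primed groups was -1.33 (SE 1.13, edgeR's adjusted p = 0.347). Gm12534, an antisense gene, overlaps Il21. Whether counting used strand is not given in the sources used here, so reads of Il2, Il21 and Csf2 cannot be told apart from those of the overlapping genes on the other strand.

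Csf2 and Il3 encode GM-CSF and interleukin 3, growth factors of myeloid cells, from neighbouring genes 15635 bases apart. Csf2 (ENSMUSG00000018916.5, chr11:54247271-54249667, minus strand, overlapped by the antisense gene Gm12223) stood at 0.144 and 0.147 CPM in Naive. It was 0.417, 0, 0.349, 0 and 0.433 CPM in Ag and 1.42, 1.15, 0.643, 0.349 and 0 CPM in Ag+Costim. A library at 0 occurred in both primed groups. The log2 fold change was 0.73 (SE 1.5, edgeR's adjusted p = 0.718) in Ag versus Naive, 1.54 (SE 1.08, edgeR's adjusted p = 0.253) in Ag+Costim versus Ag and 2.27 (SE 1.61, edgeR's adjusted p = 0.249) in Ag+Costim versus Naive. Il3 (ENSMUSG00000018914.5, chr11:54265303-54267277, minus strand) had no counts in any of the 12 libraries, where 3 counts stand for 0.0617 to 0.119 CPM, so it was not detectable at this depth.

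Compared per length, as FPKM summed over the transcripts of a gene, the order of levels changed between the groups. In Naive it ran Ltb (1303 ± 64.4 FPKM, SD, n = 2), Tgfb1 (29.3 ± 0.156), Lta (10.6 ± 0.685), Tnf (6.20 ± 1.22), Ifng (0.703 ± 0.233) and Csf2 (0.188 ± 0.00829), with no overlap between neighbours in the order. In Ag (SD, n = 5) Tgfb1 dropped to the fifth place: Ltb stood at 847 ± 68.3 FPKM, Lta at 19.96 ± 3.45, Tnf at 13.2 ± 0.993, Ifng at 13.01 ± 2.16, Tgfb1 at 6.35 ± 1.76 and Il2 at 4.68 ± 0.673. The libraries of Tnf and Ifng overlapped there, as did those of Tgfb1 and Il2. In Ag+Costim (SD, n = 5) Ltb (500 ± 76.0 FPKM) was followed by Tgfb1 at 47.4 ± 6.81, then by Tnf at 7.60 ± 1.70, Lta at 7.44 ± 2.03 and Ifng at 7.18 ± 1.05, whose libraries overlapped. Il2 stood at 2.99 ± 0.369 FPKM. Csf2 (0.843 ± 0.697), Il10 (0.209 ± 0.135) and Il21 (0.0711 ± 0.0917) came last. By mean FPKM, Ltb ranked 51 of 23447 gene names above 0 in Naive, 98 of 25050 in Ag and 151 of 24900 in Ag+Costim.

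**Figure D3:**
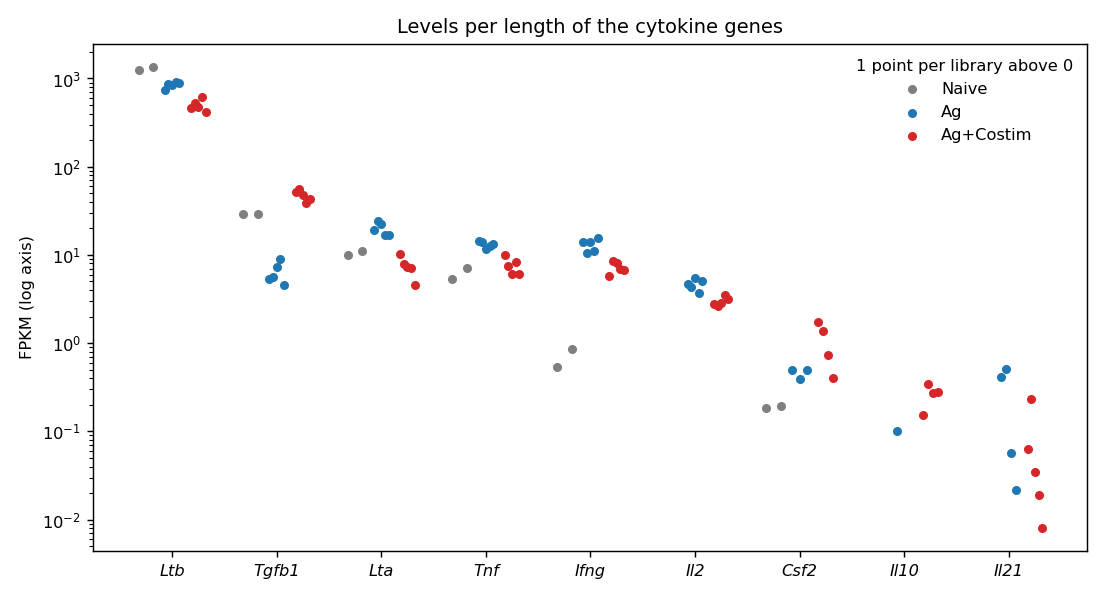
FPKM on a log axis for 9 cytokine genes (horizontal axis) in Naive (grey), Ag (blue) and Ag+Costim (red), 1 point per library above 0. Tgfb1 moves from below Lta, Tnf and Ifng in Ag to second place in Ag+Costim, and Ltb stays far above the others throughout.

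The 8 cytokine genes other than Ltb and Tgfb1 summed to 23.4 ± 2.82 CPM in Naive (SD, n = 2), 72.5 ± 7.86 in Ag (SD, n = 5) and 37.7 ± 5.37 in Ag+Costim (SD, n = 5). The lowest Ag library (59.1 CPM) lay above the highest of Ag+Costim (44.1 CPM). Adding Tgfb1 turned this order, to 86.3 ± 6.46 CPM in Ag and 143.9 ± 18.9 in Ag+Costim. With Ltb as well it turned back, to 1018 ± 104 CPM in Ag and 704 ± 85.8 in Ag+Costim, below 1404 ± 1.2 in Naive, so the order of the sum depends on the genes in it.

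Transcript shares were compared for genes with more than 1 transcript above 5% of the counts, which left Tgfb1 and Ltb. Tgfb1-204, a transcript with a retained intron, held 11.3%, 6.18%, 7.86%, 19.4% and 10.8% of the Tgfb1 counts in Ag 1 to 5. It held 3.18%, 3.23%, 1.49%, 2.94% and 3.89% in Ag+Costim 1 to 5, and 7.98% and 7.60% in Naive. The primed groups did not overlap, with Ag 4 the highest. The mean share was 11.1% ± 5.08 in Ag and 2.94% ± 0.888 in Ag+Costim (SD, n = 5 each), a difference of -8.16 percentage points (exact permutation test, two-sided, p = 0.00794, the smallest that 5 against 5 libraries can give, adjusted p = 0.0198 over 5 transcripts). The coding transcript Tgfb1-201 rose in turn from 87.7% ± 5.03 to 96.6% ± 1.15 (exact permutation test, adjusted p = 0.0198). In counts, Tgfb1-204 went from 33 to 94 per Ag library to 77 to 185 per Ag+Costim library, so the share fell while the transcript's own counts were not lower. Both calls held without any 1 library, at -9.39 to -6.09 percentage points for Tgfb1-204.

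Ltb divided its counts among the coding transcripts Ltb-201 and Ltb-203 and the retained-intron transcript Ltb-202. Ltb-201 held 15.6% to 75.1% of them in the Ag libraries, 28.7% to 72.3% in the Ag+Costim libraries and 46.4% and 75.6% in Naive. This spread within groups was far wider than the difference of their means, -1.48 percentage points between the primed groups (exact permutation test, p = 0.889). Ltb-202 differed by -1.58 points (exact permutation test, p = 0.492) and Ltb-203 by 3.06 points (exact permutation test, p = 0.810).

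**Figure D4:**
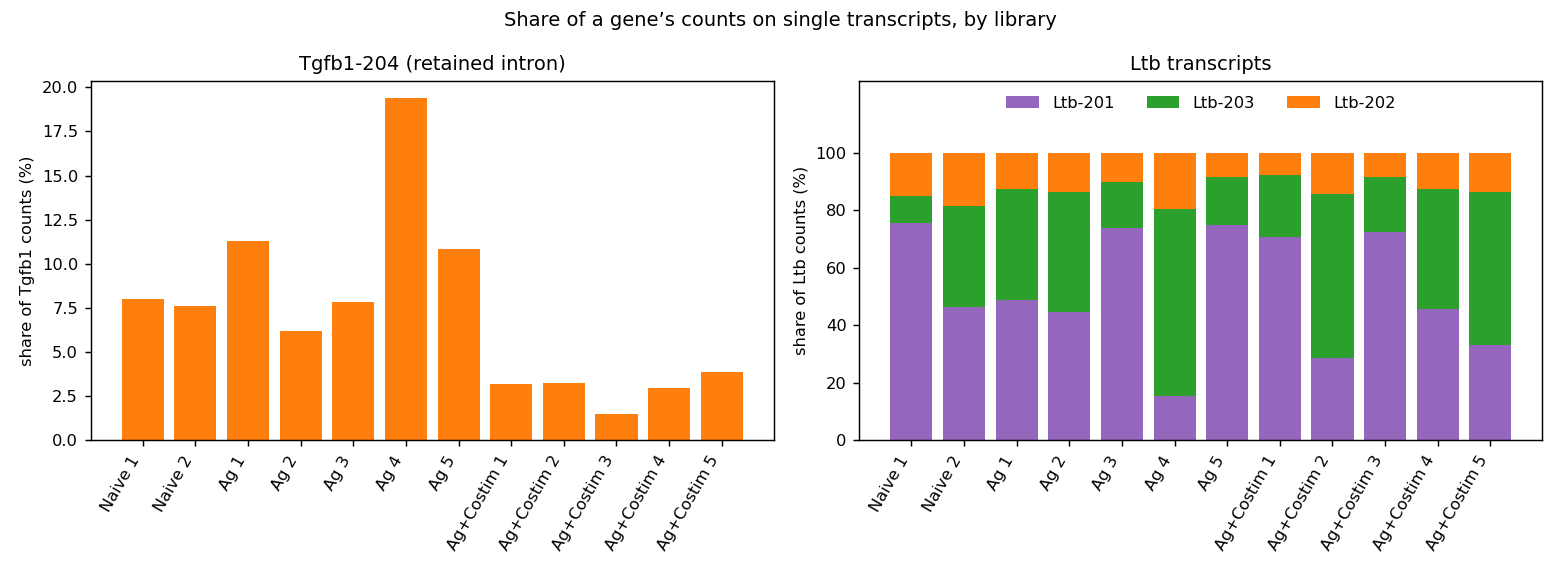
Share of the gene's counts (vertical axis, percent) on Tgfb1-204 (left) and on the 3 Ltb transcripts (right) in each of the 12 libraries. Tgfb1-204 holds 1.49% to 3.89% in the Ag+Costim libraries and at least 6.18% in the others, while the Ltb shares vary within every group.

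Whippet's percent-spliced-in values (Psi), the share of reads at a node of the gene that include it, were given by the authors once per primed group and so carry no error. Of 25 nodes in the cytokine genes, 2 differed by more than 0.1, or 8.0%, against 7.39% of 115403 nodes over all genes. Both were tandem ends of Tnf. The distal end (chr17:35199381-35199506, the last 126 bases of the 3′ untranslated region) had a Psi of 0.769 in Ag and 0.944 in Ag+Costim, and the node before it (chr17:35199507-35200563) of 0.231 and 0.0556. The ATTTA-rich window of Tnf printed above lies in the node before the distal end. The annotated transcript Tnf-202 ends where that node does and lies within Tnf-201. The deposited counts gave Tnf-202 0 counts in all 12 libraries and all Tnf counts to Tnf-201. This includes Ag, where Psi puts 0.231 on the earlier end. The transcript counts thus do not separate the ends, and the difference was not tested per library. Node 3 of Il2, an exon (chr3:37122990-37123136) went from 0.945 to 0.867. The 5 inner exon nodes of Tgfb1 went from between 0.972 and 0.981 to between 0.990 and 0.998.

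Genes of related function were read from lists, and each list is a description beside the background given above. Among 17 receptor genes of these cytokines, all tested, costimulation raised 8 and lowered 4 relative to Ag, with a median log2 fold change of 0.31. Il2ra, the alpha chain of the high-affinity interleukin 2 receptor, rose by 4.93 (SE 0.47, edgeR's adjusted p = 1.67e-06), from 2.38 ± 1.77 to 69.9 ± 33.5 CPM. Il2rb, the beta chain shared with the interleukin 15 receptor, rose by 1.97 (SE 0.14, edgeR's adjusted p = 9.62e-08). Il2rg, the common gamma chain, fell by 0.68 (SE 0.11, edgeR's adjusted p = 0.000160), so the 3 chains did not move alike. Csf2rb and Csf2rb2, beta chains for GM-CSF and interleukin 3, rose by 2.26 and 3.25 from very low levels, and Csf2ra fell by 0.86. Il10rb (-0.75) and Ifngr2 (-0.69) were also lower. Relative to Naive, Ag had 3 receptor genes higher and 5 lower (median -0.07). Ifngr2, the signalling chain for interferon gamma, fell by 3.85 there (SE 0.26, edgeR's adjusted p = 1.64e-07), from 51.1 ± 0.210 to 3.55 ± 0.558 CPM. Tgfbr2 (-1.72), Il21r (-0.96) and Tgfbr1 (-0.95) were lower as well, Tnfrsf1b (0.81) and Csf2ra (0.62) were higher, and Ltbr was at least 5.99-fold higher (3.53-fold without Ag 4). Ag+Costim had 7 higher and 5 lower than Naive (median -0.17). Il2ra (4.33), Csf2rb (2.77), Tnfrsf1b (2.24) and Ltbr (at least 7.32-fold) led the rises, and Ifngr2 (-4.54), Tgfbr1 (-1.11), Il21r (-0.68) and Tgfbr2 (-0.64) the falls.

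Of 14 genes for proteins that bind AU-rich elements or stem-loops in such mRNAs, 6 rose and 2 fell in Ag+Costim relative to Ag (median 0.25). Khsrp, which promotes decay at AU-rich elements, rose by 2.28 (SE 0.26, edgeR's adjusted p = 6.29e-06), from 11.8 ± 2.70 to 57.4 ± 24.1 CPM. Zc3h12a, the stem-loop endonuclease Regnase-1, rose by 1.64 (SE 0.24, edgeR's adjusted p = 6.05e-05), and Ptbp1 (1.49) and Tardbp (0.82) rose too. Zfp36l1 (-1.0) and Zfp36 (-0.75), which encode decay factors of the tristetraprolin family, were lower. Between Ag and Naive, 2 were higher and 9 lower (median -0.59). Zc3h12a (-1.90), Rc3h2 (-1.56), Rc3h1 (-1.36) and Zfp36 (-1.08) fell most, and Elavl1 (1.17) and Hnrnpd (1.04) rose. Between Ag+Costim and Naive, 4 were higher and 6 lower (median -0.19), led by Khsrp (1.30), Ptbp1 (1.29), Hnrnpd (1.10) and Elavl1 (1.10) upward and by Zfp36 (-1.82), Zfp36l1 (-1.26), Rc3h2 (-1.23) and Rc3h1 (-0.82) downward. Without Naive 2, 5 were lower in Ag versus Naive, and without either Naive library 1 was higher there and 2 in Ag+Costim versus Naive.

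Of 18 genes for transcription factors that act at cytokine loci, 8 rose and 4 fell in Ag+Costim relative to Ag (median 0.19). Prdm1, which encodes Blimp-1, a repressor of Il2 in effector cells, rose by 4.24 (SE 0.27, edgeR's adjusted p = 5.97e-08), from 0.930 ± 0.261 to 17.4 ± 3.89 CPM. Tbx21 (2.02) and Eomes (1.69), the T-box factors of Ifng, and Irf4 (1.79) rose while Ifng itself was lower. Maf (-1.88), Fos (-1.85), Junb (-0.41) and Rela (-0.29) were lower. Relative to Naive, Ag had 4 higher (Irf4 2.90, Tbx21 1.51, Batf 1.43 and Eomes 0.88) and 2 lower (Ikzf1 -1.41 and Runx3 -1.18), with a median of 0.16. Compared with Naive, Ag+Costim had 7 higher, led by Irf4 (4.69), Prdm1 (3.79), Tbx21 (3.53) and Eomes (2.58), and 3 lower, Fos (-2.17), Maf (-1.43) and Junb (-0.40), with a median of 0.33. A single one was lower without either Naive library or without Ag+Costim 3, 4 or 5.

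Of 14 other ligands of the TNF superfamily, 11 were tested, and in Ag+Costim versus Ag 3 were higher and 4 lower (median -0.03, or -0.46 with Cd70 at its bound and Tnfsf18 left out). Fasl, the death ligand of cytotoxic cells, rose by 0.95 (SE 0.19, edgeR's adjusted p = 0.000848), Tnfsf9, the ligand of CD137, by 0.61, and Cd70 was at least 14.6-fold higher. Tnfsf8 (-2.41), Cd40lg (-2.01), Tnfsf11 (-1.32) and Tnfsf14 (-0.88) were lower. In Ag versus Naive 6 were higher and 1 lower (median 1.09, or 1.64 with bounds), with Tnfsf4, the ligand of CD134, at 6.98, Tnfsf11 at 4.66, Tnfsf9 at 2.85 and Fasl at 2.20, and Tnfsf18 at least 4.74-fold lower, a call lost without either Naive library. For Ag+Costim versus Naive, 6 were higher and 3 lower (median 2.45), with Tnfsf4 at 5.89, Tnfsf9 at 3.46, Tnfsf11 at 3.35 and Cd70 at least 18.4-fold higher, and with Cd40lg (-2.21), Tnfsf8 (-1.32) and Tnfsf18 (at least 5.34-fold lower) downward. Tnfsf4 had no counts in Naive 1 and a Naive mean of 0.042 ± 0.059 CPM (SD, n = 2), so its values against Naive rest on few counts.

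Of 32 other secreted cytokine genes, 18 were tested. Il1a had no counts in Naive 1 and a Naive mean of 0.126 ± 0.178 CPM (SD, n = 2), so its value against Naive rests on few counts. Between the primed groups 1 was higher, Mif (0.31), a call that held only without Ag 1, Ag 3 or Ag+Costim 4 among the settings that leave out a library, and 3 were lower, Il12a (-3.54), Flt3l (-0.86) and Il16 (-0.64), with a median of -0.40 (-0.38 with bounds). In Ag versus Naive 7 were higher and 1 lower (median 1.30, or 1.2 with bounds). Il18 (3.89), Csf1 (3.57), Il12a (at least 17.2-fold) and Lif (at least 7.38-fold) led, and Flt3l fell by 0.68, though not without either Naive library. The number called higher fell to 4 without Naive 1 and to 3 without Naive 2. In Ag+Costim versus Naive 4 were higher, Il18 (3.75), Il1a (3.34), Mif (0.91) and Lif (at least 19.8-fold, or 12.1-fold without Ag+Costim 2), and 4 were lower, Tgfb3 (-2.26), Flt3l (-1.54), Il16 (-0.56) and Il17f (at least 13.6-fold, or 3.83-fold without Naive 2 and 23.4-fold without Naive 1), with a median of 1.49 (1.16 with bounds) and 1 lower without Naive 2.

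Of 11 genes for cytokine processing and TGF-beta activation, 7 were tested, and in Ag+Costim versus Ag 2 were higher and 1 lower (median 0.54). Adam17, the protease that sheds tumour necrosis factor, rose by 1.39 (SE 0.10, edgeR's adjusted p = 1.06e-07), from 54.4 ± 6.80 to 142 ± 8.99 CPM, and Adam10 by 0.32, with 1 called higher without Ag 3, Ag 4 or Ag+Costim 2 and 4 without Ag+Costim 1. Itgav, an integrin chain that can free latent TGF-beta, was lower (-0.55). Ag exceeded Naive in Adam10 (0.47) and Ltbp4 (at least 5.76-fold) and was lower in Furin (-0.88) and Adam17 (-0.44), with a median of 0.38. The rises were lost without either Naive library, 1 of them without Ag 2, and the falls without Naive 2. In Ag+Costim versus Naive Ltbp4 (at least 12.6-fold), Adam17 (0.95) and Adam10 (0.78) were higher, with 0 lower (median 0.78). Lrrc32 and Itgb8, whose proteins hold or free latent TGF-beta, did not pass the filter.

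**Figure D5:**
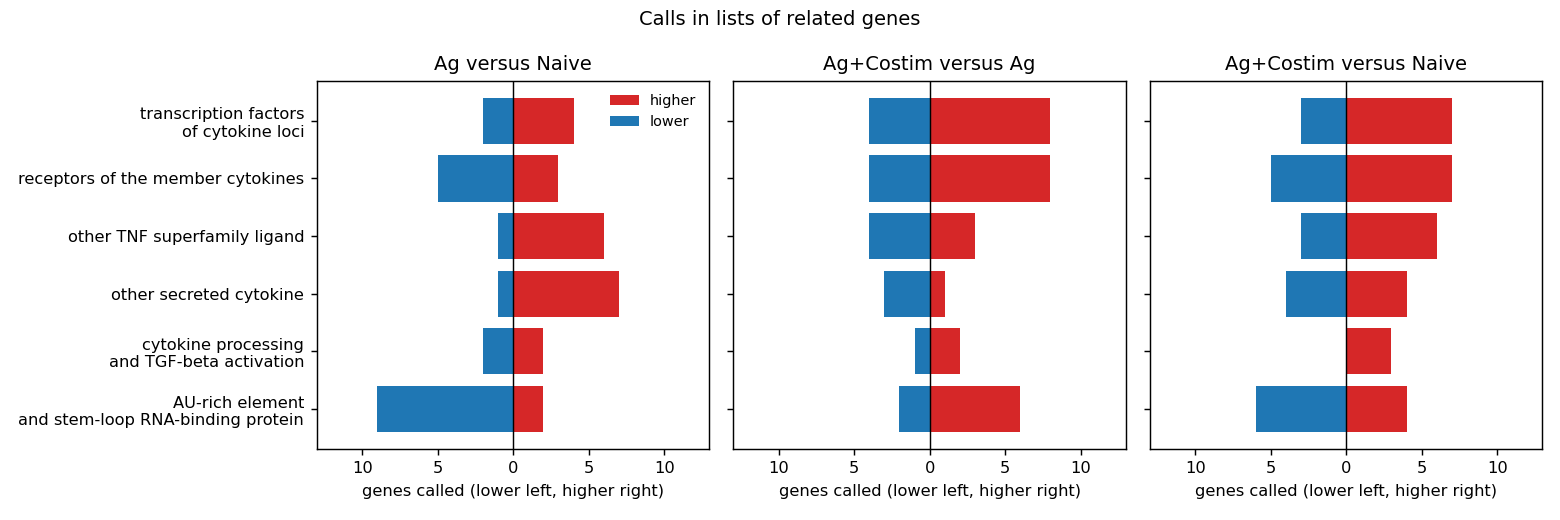
Number of genes called lower (blue, to the left) and higher (red, to the right) by edgeR in 6 lists of related genes for the 3 comparisons. The RNA-binding protein list has 9 lower and 2 higher in Ag versus Naive but 2 lower and 6 higher in Ag+Costim versus Ag.

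For each cytokine gene, the 2 genes of closest pattern were found by the root mean square difference of centred log2 CPM over the 12 libraries, among at most 9253 genes of mean log2 CPM above 3. They were Dennd2d (0.115) and Dgka (0.120) for Ltb, Coa4 (0.167) and Mapk11 (0.168) for Tnf, Cdv3 (0.207) and Xpo7 (0.218) for Tgfb1, and Elk3 (0.208) and Tnfrsf18 (0.238) for Lta. Ifng was closest to Ctse (0.294) and Ptms (0.324), and Il2 to Nrp1 (0.440) and Zbtb32 (0.565). The low genes had no close match, with Nefh (0.798) and Hspd1-ps3 (0.818) for Il10, Cd83 (1.10) and Myo1e (1.22) for Il21, and Gm26825 (1.29) and Nfkb2 (1.39) for Csf2.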

How the data were processed

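RNA of sorted OT-I CD8+ T cells was sequenced in 12 libraries (5 Ag, 5 Ag+Costim, 2 Naive), grouped by their labels. According to the submitters' processing notes and the study's methods, the authors used HISAT2 2.1.0 for alignment of single reads (mm10), SAMtools 1.9 for sorting and StringTie 2.1.0 for quantification. The deposited count tables, of genes and of transcripts, hold counts that StringTie derives from coverage, so 1 count need not be 1 read. FPKM, from the same tool, was deposited by transcript and was summed here over each gene name. Psi is a fraction that the authors computed with Whippet, 1 value per group, and how replicates were combined is not given in the sources used here. The Psi difference, probability and entropy columns of that table are the authors' own comparison and were not used. The percent of aligned reads and the reads per library come from the deposited sheet of the sequencing core.

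The 26345 unannotated rows of the gene table (0.0508% to 0.121% of a library's counts) were left out. Counts were fitted with edgeR 4.0.16 in R 4.3.3 (TMM, filterByExpr, robust quasi-likelihood test, two-sided, all 12 libraries, 1 term per group), with Benjamini-Hochberg adjustment over 18817 genes and calls at an adjusted p below 0.05. The fit was tested on simulated data first. Fold changes are relative to TMM. CPM uses TMM library sizes. A group without counts was set to 3 counts per library, which, as a floor, covers counting error only. No pair of libraries was identical. Alternatives were DESeq2 1.42.0, upper-quartile scaling, no filter, the compared groups alone, a replicate block, leaving out each library, limma 3.58.1 on log2(FPKM + 1) or log2(FPKM + 0.1) with genes at FPKM 1 or more in 2 libraries or with no filter, and a lowess correction for exonic length. Transcript shares used libraries with at least 50 counts of the gene and exact permutation tests. Motifs and 3′ regions were read from RefSeq promoters and GENCODE vM21 with Python 3.11.15.

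The cytokine genes and the lists were chosen with earlier results of these data known. Named are the 10 genes, at most the 4 largest rises and 4 largest falls among the called genes of each list and comparison, and the 2 genes of nearest pattern. Markers and overlapping genes are named as context.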

Additional observations from a re-analysis of the deposited data

Results flagged for a closer look

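Among 30 groups of 5 libraries (10 cytokine genes and 5 transcripts, each in Ag and Ag+Costim), 2 held a library whose gap to its nearest neighbour was above 0.71 of the group's range. For normally spread values, chance flags about 1 group in 20. That rate does not hold for groups with several libraries at 0, such as Il10 and Il3. Il10 stood at 0.154 CPM in Ag 1 and at 0 in the other Ag libraries, a case in which any value above 0 is flagged. Il21 stood at 0.709 CPM in Ag+Costim 2, with the other 4 libraries of that group between 0.0260 and 0.213 CPM.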

How the results depend on the processing

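Among the recomputed numbers of cytokine genes called, 121 were within 1.5 times the original and 5 were not. In Ag versus Naive the number called lower was 1 without Naive 1 or Naive 2 (Ltb was lost) and 1 to 2 over all settings that leave out a library. In Ag+Costim versus Ag the number called higher was 2 on FPKM with no filter (Il10 was gained) and 1 to 2 over the settings that leave out a library. With the replicate block, 5 rises and 2 falls were called in Ag versus Naive, 1 and 5 in Ag+Costim versus Ag, and 5 and 1 in Ag+Costim versus Naive, where Il21 was gained. Same-numbered Ag and Ag+Costim libraries deviated together with correlations of 0.297, 0.148, 0.105, -0.0447 and -0.0168, and 2 of 5 correlated best with their own number. Whether the replicate numbers pair the libraries cannot be told from these values and was not tested. Of the recomputed fold changes, 513 kept direction and call, 25 lost the call, 11 gained one and 1 changed sign, Csf2 in Ag versus Naive, with -0.033 on FPKM with a pseudocount of 0.1. The shares of Ltb-201 (-10.5 to 4.39 points), Ltb-202 (-2.68 to 0.10) and Ltb-203 (-1.83 to 10.4), none of them called, changed sign when single libraries were left out. The list counts were recomputed as an alternative added after the data were seen, and 76 of them moved by more than 1.5 times while 680 did not. Shares of FPKM were not run, because the FPKM table pairs no values with transcript names. A setting that leaves 1 Naive library takes its spread from the other groups. The causes were not tested. Il10, Il21, Csf2 and Il3 held few or no counts in many libraries, deeper ones among them, where 3 counts stand for 0.0617 to 0.119 CPM. Lower bounds without single libraries were an alternative added after the data were seen.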

Other observations

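The tested protein-coding genes next to the cytokine genes were looked up by a rule added after the values were seen. In Ag versus Naive, Dyrk2 beside Ifng (-1.77) and 4932438A13Rik beside Il2 (-1.30) were lower, while Ifng and Il2 were higher. Gm9049 beside Ifng and Mapkapk2 beside Il10 were not called there. Cetn4 beside Il21 (mean of 1.78 CPM in Ag) and Fcmr beside Il10 (13.3 CPM in Ag) had no counts in Naive. Beside Tgfb1, B9d2 (443 bases away) moved the other way: it stood at 23.5 to 28.8 CPM in Naive, 47.6 to 80.4 in Ag and 32.7 to 40.7 in Ag+Costim, with a log2 fold change of -0.84 in Ag+Costim versus Ag (SE 0.13, edgeR's adjusted p = 0.000112). Ccdc97, 6028 bases from the other end of Tgfb1, was lower in Ag (37.2 to 40.5 CPM) than in Ag+Costim (52.3 to 61.9 CPM), by 0.57 (SE 0.07, edgeR's adjusted p = 1.64e-05).

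On both sides of the Ltb, Tnf and Lta cluster, the nearest genes were highest in Ag, as Tnf and Lta were. Over all genes tested, 26.5% were called lower in Ag+Costim than in Ag. Lst1, 5999 bases from Ltb, stood at 2.73 to 3.75 CPM in Naive, 5.89 to 10.5 in Ag and 1.80 to 5.63 in Ag+Costim, a log2 fold change of -1.51 in Ag+Costim versus Ag (SE 0.30, edgeR's adjusted p = 0.000695). Nfkbil1, 14823 bases from Lta, went from 13.2 and 13.3 CPM in Naive to 21.0 to 27.8 in Ag and 14.5 to 20.8 in Ag+Costim (log2 fold change -0.34, SE 0.12, edgeR's adjusted p = 0.0266). Nfkbil1 was still above Naive in Ag+Costim, by 0.47 (SE 0.16, edgeR's adjusted p = 0.0253), where Lta was not. Ltb itself was highest in Naive.

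Acsl6, 36520 bases from Il3, had no counts in Naive or Ag and 0.407 to 1.54 CPM in every Ag+Costim library, at least 12.8-fold above 3 counts per Ag library (edgeR's adjusted p = 0.000115). Il3 stayed at 0 in those libraries. On the other side of these genes, P4ha2, 115605 bases from Csf2, had no counts in Ag either. In Ag+Costim it was at least 2.82-fold above 3 counts per Ag library (edgeR's adjusted p = 0.0152). In Naive, P4ha2 stood at 0.378 and 1.26 CPM.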
